A study of Mus musculus with 39 samples.

Results

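Testes of mice with Amh:Cre were compared with testes of mice with Cyp11a1:Cre at 2 weeks of age, on 8 of the 39 arrays of the series. The 4 srKO animals carried Amh:Cre with both Prkar1a alleles floxed, and the 4 lrKO animals carried Cyp11a1:Cre with both Prkar1a alleles floxed. The arrays were chosen by their titles alone, and the wild-type (WT) arrays entered neither the difference nor its error. RNA came from whole testis of separate animals, was labelled as biotinylated cDNA and was measured on Affymetrix GeneChip arrays as log2 intensity. The 8 WT arrays of 2 weeks, labelled littermates without a statement of the line they belong to, are quoted as ranges beside the levels. In both lines each cell keeps its floxed alleles until Cre acts, so cells without Cre contribute unchanged Prkar1a RNA to every array. In such bulk RNA fewer cells of a type and less RNA per cell cannot be told apart.

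Prkar1a encodes the type 1 alpha regulatory subunit of protein kinase A (PKA), which keeps the catalytic subunits inactive until cAMP binds it. Free catalytic subunits phosphorylate, among others, the transcription factor CREB, which acts at cAMP response elements in promoters. Amh is made by Sertoli cells, the nurse cells of the seminiferous tubule that respond to follicle-stimulating hormone through cAMP. Cyp11a1 makes the first step of steroid synthesis, and in the testis it marks the Leydig cells, which respond to luteinizing hormone through cAMP. At 2 weeks the first wave of germ cells is passing from spermatogonia into meiosis.

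Testis markers were bright in all 8 arrays, with Cldn11 of Sertoli cells at 11.81 to 11.98, Dazl of germ cells at 12.20 to 12.41 and Acta2 of peritubular myoid cells at 11.66 to 11.84. The extraction protocol names adrenal glands, against whole testis in the other labels, and the adrenal enzyme gene Cyp11b1 (4.59 to 4.87) lay beside 4.67, the 25th percentile of all values that served as the limit for testing a gene. The epididymal gene Adam7 lay at 4.35 to 4.97. Array medians lay between 5.978 and 5.996. One array stood apart. Replicate 4 of srKO had a mean correlation across genes of 0.978 with the other srKO arrays and 0.988 with the arrays labelled lrKO, whereas srKO replicates 1 to 3 correlated with their own group at 0.984 to 0.989 and with lrKO at 0.964 to 0.976. Several, but not all, results that rest on this array are given with and without it. Genotype, Cre transgene and any difference of strain background, litter or handling between the 2 lines cannot be told apart.

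The targeted gene itself differed between the lines. Prkar1a (probe set 17257874) had log2 intensities of 8.48, 8.36, 8.52 and 8.64 in the srKO arrays, against 9.02, 8.98, 9.05 and 9.08 in the arrays labelled lrKO. All 4 srKO arrays lay below all lrKO arrays and below the WT range (8.84 to 9.14), and all lrKO arrays lay inside that range. The difference was a 1.45-fold lower level in srKO (srKO minus lrKO -0.53 ± 0.07, adjusted p = 0.0101; limma, with the standard error after ±). Since Prkar1a was not below WT in the arrays labelled lrKO, a lower level in that line was not seen in whole-testis RNA, and lrKO stands for the label throughout. The driver genes differed little: Cyp11a1 was 1.28-fold higher in srKO (0.35 ± 0.08, adjusted p = 0.0407), but not past the threshold without srKO replicates 1, 2 or 3 or lrKO replicates 1, 2, 3 or 4 (adjusted p up to 0.11), and Amh did not pass the test (-0.04, adjusted p = 0.927). A second, dimmer Cyp11a1 probe set (mean 5.99) differed by 0.174.

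**Figure D1:**
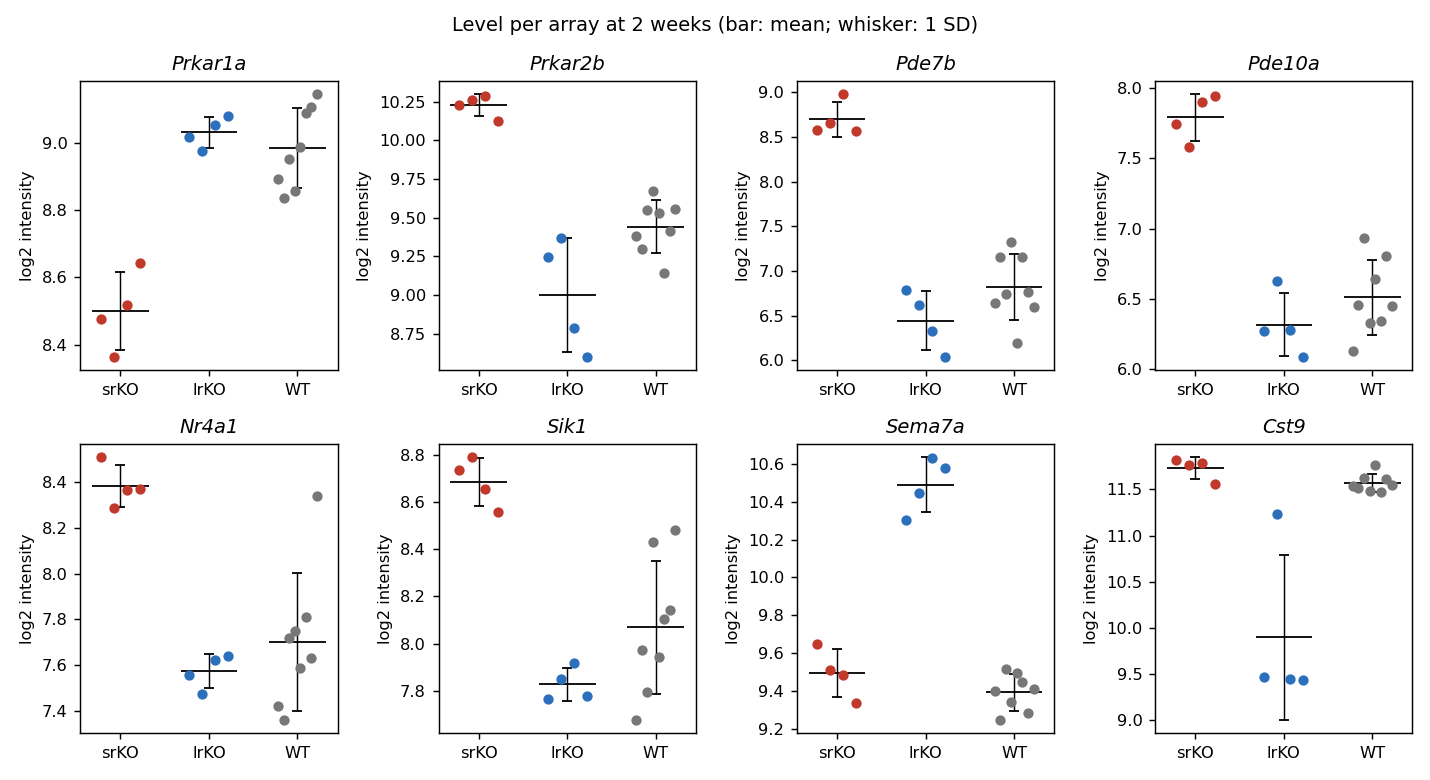
Log2 intensity at 2 weeks for 8 genes in the 4 srKO arrays (red), the 4 arrays labelled lrKO (blue) and the 8 WT arrays (grey), with bars for the mean and whiskers for 1 SD. The srKO points of Pde7b lie at 8.57 to 8.98 and the lrKO points at 6.04 to 6.78, and for Sema7a the lrKO points stand alone above both other groups.

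Of 18001 genes tested, 546 were higher in srKO than in the arrays labelled lrKO and 555 were lower at an adjusted p under 0.05, which is 3.03% and 3.08% of the genes tested. Only 12 of the higher genes differed at least 2-fold (0.0667% of genes tested), against 184 of the lower ones (1.02%). In 541 of the 546 higher genes the 4 srKO arrays lay above all lrKO arrays (8.66% of all genes tested did), and in 479 of the 555 lower genes they lay below them (5.61% of all genes tested did). The genes were called on these same arrays, so this separation follows largely from the call and is a description only. The median SD over all higher genes was 0.111 in srKO and 0.107 in lrKO, and over all lower genes 0.288 in srKO and 0.176 in lrKO. Among genes with at least 2-fold difference it was 0.179 in srKO and 0.323 in lrKO for the 12 higher genes, and 0.772 in srKO and 0.309 in lrKO for the 184 lower genes. In 179 of these 184 lower genes (97.3%) srKO replicate 4 was the highest srKO array. It was so in 436 of all 555 lower genes (78.6%) and 56 of all 546 higher genes (10.3%). Among the 12 higher genes with at least 2-fold difference it was so in 2 (16.7%). The share over all genes tested was not counted. Without this array 1197 genes were higher (6.65% of genes tested) and 1496 lower (8.31%). The total of 1101 called genes was 372 (296 higher, 76 lower) when the prKO (Sf1:Cre with floxed Prkar1a) and WT arrays of 2 weeks shared the estimate of the spread, and between 94 and 238 without any 1 of the other 7 arrays. Counts for gene lists below are to be read beside 3.03% higher and 3.08% lower of all genes. Those without srKO replicate 4 stand beside 6.65% and 8.31%, and those with the prKO and WT arrays in the fit beside 296 and 76 of 18001 genes.

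The WT arrays are set beside the called genes as a description without a test, and for most of these genes neither line lay wholly outside them. Of the 546 higher genes, 114 had all 4 srKO arrays above all 8 WT arrays, 35 had all lrKO arrays below all WT arrays, 1 had both and 396 neither. Of the 555 lower genes, 12 had srKO below WT, 17 had lrKO above WT, 1 had both and 525 neither. Over all genes tested, the srKO arrays lay wholly outside the WT arrays in 1.73% and the lrKO arrays in 0.989%. Of the 184 genes at least 2-fold lower, 168 had both group means inside the WT range. So did 440 of all 555 lower genes, 192 of all 546 higher genes and 0 of the 12 genes at least 2-fold higher. The share over all genes tested was not counted. WT replicates 1 to 4 and 5 to 8, which earlier work on these data found to differ, did not overlap in 11% of the higher and 5.05% of the lower genes, against 11.5% of all genes tested. As an alternative, the difference between these 2 WT sets was subtracted from the difference between the lines, once with replicates 1 to 4 and once with replicates 5 to 8 given to srKO. The first subtraction ended the call of Prkar1a (-0.33, adjusted p = 0.0655).

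**Figure D2:**
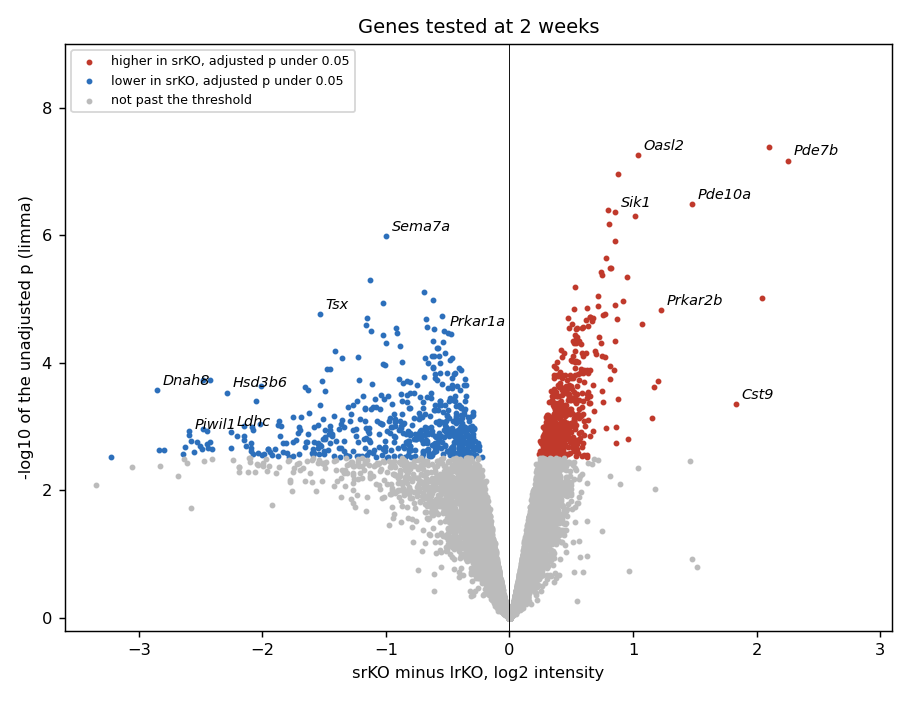
Difference in log2 intensity (srKO minus lrKO, horizontal) against the -log10 of the unadjusted limma p (vertical) for the 18001 genes tested at 2 weeks, with the 546 higher genes in red and the 555 lower genes in blue. The higher genes form a narrow column with Pde7b (2.25) and Pde10a (1.48) far out, and the lower genes reach past Dnah8 (-2.85) at weaker p-values.

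Several genes of the cAMP pathway were called. Pde7b, a phosphodiesterase that degrades cAMP, had 8.58, 8.66, 8.98 and 8.57 in the srKO arrays, against 6.78, 6.62, 6.33 and 6.04 in the arrays labelled lrKO. Its level was 4.77-fold higher in srKO (2.25 ± 0.16, adjusted p = 0.000404), above the WT range of 6.19 to 7.32, and the lrKO arrays lay from just below to inside that range. Pde10a, which degrades cAMP and cGMP, had 7.75, 7.58, 7.90 and 7.94 in srKO, against 6.27, 6.63, 6.28 and 6.08 in lrKO, a 2.78-fold difference (1.48 ± 0.12, adjusted p = 0.00111). No srKO array of either gene overlapped any lrKO or WT array. Of 16 phosphodiesterase genes tested, 4 were higher and 0 lower in srKO (5 and 2 without srKO replicate 4, and 2 and 0 with the 2-week prKO and WT arrays in the fit), with a median difference of 0.09 beside 0.03 for all genes tested. In the other direction, Pde1c (-0.99, adjusted p = 0.0622) did not pass with all arrays but passed without srKO replicate 4 (-1.27, adjusted p = 0.00176). The other 2 called members were Pde4b (0.36, adjusted p = 0.0316) and Pde4d (0.40, adjusted p = 0.0401), named after their values were seen. Both belong to the family of cAMP-specific phosphodiesterases that PKA itself phosphorylates.

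PKA subunits moved in opposite directions. Prkar2b, the type 2 beta regulatory subunit, had 10.23, 10.26, 10.29 and 10.13 in the srKO arrays, against 9.25, 9.37, 8.79 and 8.60 in lrKO. It was 2.34-fold higher in srKO (1.23 ± 0.16, adjusted p = 0.00892), with all srKO arrays above and 2 of 4 lrKO arrays below the WT range (9.14 to 9.67). Pkia, an inhibitor peptide of the catalytic subunit, was 1.45-fold higher in srKO (0.54 ± 0.14, adjusted p = 0.0488), but not past the threshold without srKO replicates 1, 2 or 3 or lrKO replicates 1, 2, 3 or 4 (adjusted p up to 0.134). Of 7 tested members of the list, 2 were higher and 1, Prkar1a, was lower, and both counts were the same without srKO replicate 4. Among 16 adenylyl cyclase and cAMP effector genes, 1 was called, the anchoring protein gene Akap1 (0.32, adjusted p = 0.0474), not past the threshold without srKO replicates 1, 2 or 3 or lrKO replicates 1, 2, 3 or 4 (adjusted p up to 0.132).

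Of 28 cAMP and CREB target genes tested, 7 were higher in srKO and 0 were lower, beside 3.03% and 3.08% of all genes tested. Of these 7, Pde10a, Pde4b and Pde4d are phosphodiesterase genes already counted above, and the other 4 are Sik1, Nr4a1, Nr4a2 and Nr4a3. The median difference of the list was 0.18, and the counts were 8 and 1 without srKO replicate 4, and 3 and 0 with the 2-week prKO and WT arrays in the fit. Sik1, a kinase gene induced by cAMP, had 8.73, 8.79, 8.66 and 8.56 in the srKO arrays, against 7.77, 7.85, 7.92 and 7.78 in lrKO (0.86 ± 0.07, adjusted p = 0.00111). The immediate-early nuclear receptor gene Nr4a1 had 8.51, 8.29, 8.37 and 8.37 in srKO, against 7.56, 7.48, 7.62 and 7.64 in lrKO (0.81 ± 0.07, adjusted p = 0.00131). In both genes the groups did not overlap, and the srKO arrays lay above all lrKO arrays by at least 0.64. The highest WT arrays reached 8.48 for Sik1 and 8.34 for Nr4a1, so that Nr4a1 of srKO overlapped WT in 1 array. With the WT set difference subtracted, replicates 5 to 8 given to srKO, neither passed (Sik1 0.66, adjusted p = 0.0517, and Nr4a1 0.53, adjusted p = 0.0901). The related receptor genes Nr4a3 (0.60, adjusted p = 0.0413) and Nr4a2 (0.30, adjusted p = 0.0323) were also higher, with no overlap of the groups; they were named after their values were seen. Among the members not past the threshold were Crem (-0.48) and Egr1 (0.25).

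The promoters of these 3 receptor genes are shown because all 3 were higher in srKO and each holds several copies of a 5-base core of the cAMP response element. Windows ran from 250 bases before to 50 bases after the annotated start, in GRCm38.p6 of RefSeq, read 5′ to 3′ on the strand of the gene. Capitals mark TGACG or its reverse complement CGTCA, searched on both strands.
Nr4a1 (chr15:101266596-101266895, + strand): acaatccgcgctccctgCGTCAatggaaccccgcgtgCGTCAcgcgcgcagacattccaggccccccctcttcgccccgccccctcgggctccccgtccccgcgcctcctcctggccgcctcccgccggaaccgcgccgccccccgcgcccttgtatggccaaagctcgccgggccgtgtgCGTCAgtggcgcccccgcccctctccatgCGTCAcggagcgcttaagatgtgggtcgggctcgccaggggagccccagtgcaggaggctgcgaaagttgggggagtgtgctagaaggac
Nr4a2 (chr2:57123954-57124253, - strand): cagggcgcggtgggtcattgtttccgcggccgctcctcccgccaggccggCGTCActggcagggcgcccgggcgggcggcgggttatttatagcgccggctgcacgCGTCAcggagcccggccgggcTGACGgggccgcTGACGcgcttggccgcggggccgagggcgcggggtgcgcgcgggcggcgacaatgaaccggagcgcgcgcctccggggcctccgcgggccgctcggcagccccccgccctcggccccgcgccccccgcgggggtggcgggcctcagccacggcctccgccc
Nr4a3 (chr4:48045055-48045354, + strand): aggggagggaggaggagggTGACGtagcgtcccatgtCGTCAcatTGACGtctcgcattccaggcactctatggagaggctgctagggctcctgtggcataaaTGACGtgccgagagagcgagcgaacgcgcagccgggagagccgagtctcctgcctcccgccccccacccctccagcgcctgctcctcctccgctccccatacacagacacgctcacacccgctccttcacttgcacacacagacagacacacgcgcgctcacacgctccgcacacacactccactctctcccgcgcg
Each of the 3 windows held 4 copies. They were chosen for holding several, so the shares that follow are background and do not test whether called genes hold more copies. At least 1 copy was found in 20.8% of 32851 such windows, and at least 4 in 0.23% (76 windows). The full palindrome TGACGTCA, which contains both forms overlapping, was found in 1.79% of windows and in none of these 3. The windows of Pde7b, Pde10a, Prkar2b and Pde4d held no copy, and Sik1 had no window. Among genes higher in srKO, 1 of 4 windows of Pde4b and 1 of 2 of Cyp11a1 held 1 copy. Among genes lower in srKO, 3 of 6 Prkar1a windows held copies (at most 3 in 1 window), and 2 of the 6 held the full palindrome. The 1 window of Sema7a held 1 copy. These matches are letters in a window and no measurement of binding.

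Other large rises lay mostly outside these lists. Oasl2, an interferon-induced gene of the oligoadenylate synthetase family, had 7.74, 7.75, 7.62 and 7.75 in the srKO arrays, against 6.80, 6.60, 6.60 and 6.71 in lrKO (1.04 ± 0.07, adjusted p = 0.000404). Its WT arrays (7.05 to 7.69) lay above all lrKO arrays and reached the srKO range. Of 9 interferon genes tested, 1 was called, Bst2 (0.63, adjusted p = 0.0263), which did not pass without srKO replicates 1 or 2 or lrKO replicates 1, 2 or 3 (adjusted p up to 0.0826). Kcnma1, the pore subunit of a calcium-activated potassium channel, was 2.11-fold higher (1.08 ± 0.15, adjusted p = 0.00963), against 0.57 (adjusted p = 0.025) when its 2 probe sets were averaged. The serine protease gene Prss12 (1.02 ± 0.09, adjusted p = 0.00111) and the ubiquitin ligase gene Hecw2 (0.95 ± 0.11, adjusted p = 0.0048) had 4 srKO arrays above all WT arrays. Pappa, a protease of insulin-like growth factor binding proteins, was 2.29-fold higher (1.20 ± 0.21, adjusted p = 0.0214), but not past the threshold without srKO replicates 1, 2 or 3 or lrKO replicate 3 (adjusted p up to 0.0743). The actin-severing gene Scin (1.17 ± 0.21, adjusted p = 0.0234) did not pass without srKO replicates 1 or 2 or lrKO replicates 3 or 4 (adjusted p up to 0.0723), and the receptor-associated membrane protein gene Shisa6 (1.15 ± 0.24, adjusted p = 0.0335) did not pass without srKO replicates 1, 2 or 3 or lrKO replicates 1, 2, 3 or 4 (adjusted p up to 0.0939).

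Sema7a, a membrane-anchored semaphorin gene that is the nearest protein-coding neighbour of Cyp11a1 on 1 side, showed the opposite pattern. It had 9.65, 9.51, 9.48 and 9.34 in the srKO arrays, against 10.30, 10.45, 10.63 and 10.58 in lrKO, a 1.99-fold lower level in srKO (-0.996 ± 0.09, adjusted p = 0.00186). The srKO arrays overlapped the WT range (9.25 to 9.51), and the lrKO arrays lay above all of them. Of the 10 protein-coding genes on each side of Cyp11a1 in RefSeq order, 19 were tested and 2 were called, Sema7a and, higher in srKO, Cd276 (0.65, adjusted p = 0.00908), an immune checkpoint ligand gene. Around Amh 1 of 18 tested neighbours was called, the stress response gene Gadd45b (0.36, adjusted p = 0.032), and around Prkar1a 3 were higher (Prkca, Slc16a6 and Map2k6) and 1, Amz2, was lower of 19 tested. Gadd45b and these 4 neighbours of Prkar1a each lost the threshold in 7 of 8 fits that left out 1 array (adjusted p up to 0.135), and Cd276 lost it with WT replicates 1 to 4 given to srKO (0.54, adjusted p = 0.0813). Over all genes tested 6.12% were called.

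Sertoli cell genes differed in both directions. Of 27 tested, 3 were higher and 2 lower in srKO (6 and 2 without srKO replicate 4), and the median difference was 0.09. Cst9, a cystatin gene of Sertoli cells, had 11.82, 11.77, 11.79 and 11.55 in the srKO arrays, against 9.47, 11.24, 9.44 and 9.44 in lrKO. All 4 lrKO arrays lay below the WT range of 11.47 to 11.76, replicate 2 by less than the other 3. The group difference was 1.84 ± 0.36, adjusted p = 0.0284, with a value of 2.28 without lrKO replicate 2, and it did not pass the threshold without srKO replicates 1, 2 or 3 or lrKO replicates 1, 3 or 4 (adjusted p up to 0.0872). Kitl, the ligand of the receptor Kit on germ cells, was 1.51-fold higher (0.60 ± 0.11, adjusted p = 0.027), but not without srKO replicates 1 or 2 or lrKO replicates 1, 2, 3 or 4 (adjusted p up to 0.0872). The X-linked testis gene Tsx had 9.64, 9.42, 8.84 and 10.01 in srKO, against 10.99, 10.99, 10.98 and 11.07 in lrKO (-1.53 ± 0.20, adjusted p = 0.00908), but it was -0.76, adjusted p = 0.214 with WT replicates 5 to 8 given to srKO. The homeobox gene Rhox5, which androgen induces in Sertoli cells, was 1.78-fold lower in srKO (-0.83 ± 0.14, adjusted p = 0.0214), but not past the threshold without srKO replicate 1 or lrKO replicates 1, 3 or 4 (adjusted p up to 0.0684). All lrKO arrays of Rhox5 lay above the WT range (7.08 to 7.72). Fshr, the receptor of follicle-stimulating hormone, did not pass (-0.30, adjusted p = 0.131).

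Steroid synthesis genes were mixed. Of 10 tested, 2 were higher and 1 lower in srKO (3 and 1 without srKO replicate 4, and 0 and 1 with the 2-week prKO and WT arrays in the fit). Star, which carries cholesterol into mitochondria, had 9.07, 9.28, 8.73 and 8.75 in the srKO arrays, against 8.20, 8.41, 7.69 and 8.00 in lrKO (0.88 ± 0.17, adjusted p = 0.027), inside the WT range (7.40 to 9.11) in all arrays but srKO replicate 2. It did not pass the threshold without srKO replicates 1 or 2 or lrKO replicates 1, 3 or 4 (adjusted p up to 0.0835). Cyp17a1, which makes androgen precursors, had 4 srKO arrays (9.47 to 10.35) above all lrKO arrays (7.55 to 9.40) without passing the test (1.46, adjusted p = 0.0526), and passed without srKO replicate 4 (adjusted p = 0.0189). Hsd3b6, the 3-beta-hydroxysteroid dehydrogenase of adult Leydig cells, had 7.49, 6.20, 5.68 and 6.29 in srKO, against 8.95, 9.46, 8.70 and 7.69 in lrKO. All but 1 of its 4 srKO arrays lay below the WT range (7.11 to 9.90), with a 4.87-fold lower level (-2.28 ± 0.42, adjusted p = 0.0248) that did not pass without srKO replicates 2 or 3 or lrKO replicates 1, 2 or 3 (adjusted p up to 0.0826). Of 14 Leydig cell genes 0 were higher (2 without srKO replicate 4) and 1, the adhesion molecule gene Vcam1, was lower (-0.67, adjusted p = 0.0402), and not without srKO replicates 1 or 2 or lrKO replicates 1, 2, 3 or 4 (adjusted p up to 0.104).

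Cholesterol synthesis and uptake genes gave 2 higher and 0 lower of 18 tested (5 and 0 without srKO replicate 4), with a median difference of 0.17. Dhcr7, the last enzyme of cholesterol synthesis, had 9.04, 9.06, 9.10 and 8.93 in the srKO arrays, against 8.42, 8.65, 8.48 and 8.17 in lrKO (0.60 ± 0.10, adjusted p = 0.0186). Its groups did not overlap, and it did not pass the threshold without srKO replicates 1 or 2 or lrKO replicate 1 (adjusted p up to 0.0672). The lipoprotein receptor gene Scarb1 was 1.39-fold higher (0.47 ± 0.09, adjusted p = 0.027), but not without srKO replicates 1, 2 or 3 or lrKO replicates 1, 3 or 4 (adjusted p up to 0.0875). Of 3 adrenal cortex genes tested 0 were called at either the adjusted or the unadjusted threshold of 0.05 (limma).

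WNT pathway genes gave 3 higher and 0 lower of 16 tested, beside 3.03% and 3.08% of all genes tested, with a median difference of 0.24. Without srKO replicate 4 the counts were 6 and 0, beside 6.65% and 8.31% of all genes. The 3 genes called with all arrays encode secreted WNT antagonists. Sfrp1 had 9.40, 9.35, 9.35 and 9.09 in the srKO arrays, against 8.71, 8.56, 8.498 and 8.55 in lrKO (0.72 ± 0.09, adjusted p = 0.00769). The WT arrays (8.98 to 10.14) covered the srKO arrays and lay above the lrKO arrays. Wif1 (0.65, adjusted p = 0.0384) and Sfrp4 (0.64, adjusted p = 0.0197) were also higher, Wif1 not without srKO replicates 1, 2 or 3 or lrKO replicates 1, 2, 3 or 4 (adjusted p up to 0.1) and Sfrp4 not without srKO replicate 2 or lrKO replicates 1, 3 or 4 (adjusted p up to 0.0649). With the 2-week prKO and WT arrays in the fit, Sfrp1 did not pass (adjusted p = 0.0574), and with the WT set difference subtracted, replicates 1 to 4 given to srKO, it was 0.13, adjusted p = 0.818.

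Called spermatogonial genes were mostly higher in srKO and called meiotic genes mostly lower, a contrast that was not tested as such. Of 20 spermatogonial genes 7 were higher and 1 was lower in srKO, beside 3.03% and 3.08% of all genes tested, with a median difference of 0.33. Without srKO replicate 4 the counts were 10 and 3, beside 6.65% and 8.31% of all genes. Stra8, which retinoic acid induces before meiosis, had 9.62, 9.73, 9.65 and 9.46 in the srKO arrays, against 8.83, 8.77, 9.01 and 8.87 in lrKO (0.74 ± 0.08, adjusted p = 0.00458). Kit, the receptor of differentiating spermatogonia, had 9.85, 9.76, 10.005 and 9.69 in srKO, against 9.32, 9.32, 9.29 and 9.21 in lrKO (0.54 ± 0.08, adjusted p = 0.0118). In Stra8 and Kit all srKO arrays lay above all lrKO arrays, and for Kit also above all WT arrays (9.34 to 9.60). Stra8 did not pass with WT replicates 1 to 4 given to srKO (0.52, adjusted p = 0.0796). The stem cell gene Etv5 was lower (-0.54, adjusted p = 0.0227), but not without srKO replicates 2 or 3 or lrKO replicates 2, 3 or 4 (adjusted p up to 0.0772). Its second, dimmer probe set (mean 5.08) differed by -0.075. Id4, the list member with the most negative difference (-0.61, adjusted p = 0.0828), did not pass with all arrays. It passed without srKO replicate 4 (-0.83, adjusted p = 0.000413).

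Of 26 meiotic prophase genes 1 was higher and 5 were lower in srKO, beside 3.03% and 3.08% of all genes tested, with a median difference of -0.36. Without srKO replicate 4 the counts were 2 and 14, beside 6.65% and 8.31% of all genes. With the 2-week prKO and WT arrays in the fit they were 0 and 1, beside 296 and 76 of 18001 genes. Piwil1, a Piwi protein that binds small RNAs in pachytene spermatocytes, had 6.98, 6.46, 5.99 and 9.29 in the srKO arrays, against 9.63, 9.53, 9.65 and 10.28 in lrKO (-2.59 ± 0.59, adjusted p = 0.0384). Ldhc, the lactate dehydrogenase of spermatocytes and sperm, had 6.53, 6.46, 6.16 and 8.82 in srKO, against 9.11, 9.16, 8.93 and 9.78 in lrKO (-2.25 ± 0.50, adjusted p = 0.0375). In both genes srKO replicates 1 to 3 were low and replicate 4 lay just below the lowest lrKO array. The WT arrays ran from 6.66 to 10.28 for Piwil1 and from 6.50 to 9.78 for Ldhc, so that low and high WT animals spanned nearly the whole range of both lines. Meiob, a DNA-binding protein gene of meiotic recombination, fell less (-1.23 ± 0.31, adjusted p = 0.049). Of 18 spermatid genes 4 were lower and 0 higher (6 and 0 without srKO replicate 4), with a median difference of -0.02. With the 2-week prKO and WT arrays in the fit 1 was lower and 0 higher. Among the 4 were the acrosin gene Acr (-1.17, adjusted p = 0.0344) and Pgk2 (-0.57, adjusted p = 0.015). All srKO arrays of Pgk2 (4.05 to 4.39) lay below 4.67, the limit for testing, so that Pgk2 was tested only through lrKO (4.74 to 4.96). Protamine gene Prm1 lay at 6.18 to 6.24 in srKO and 6.03 to 6.34 in lrKO. Piwil1, Ldhc, Meiob and Acr each lost the threshold without any 1 of the 7 arrays other than srKO replicate 4 (adjusted p up to 0.113, 0.11, 0.124 and 0.101).

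**Figure D3:**
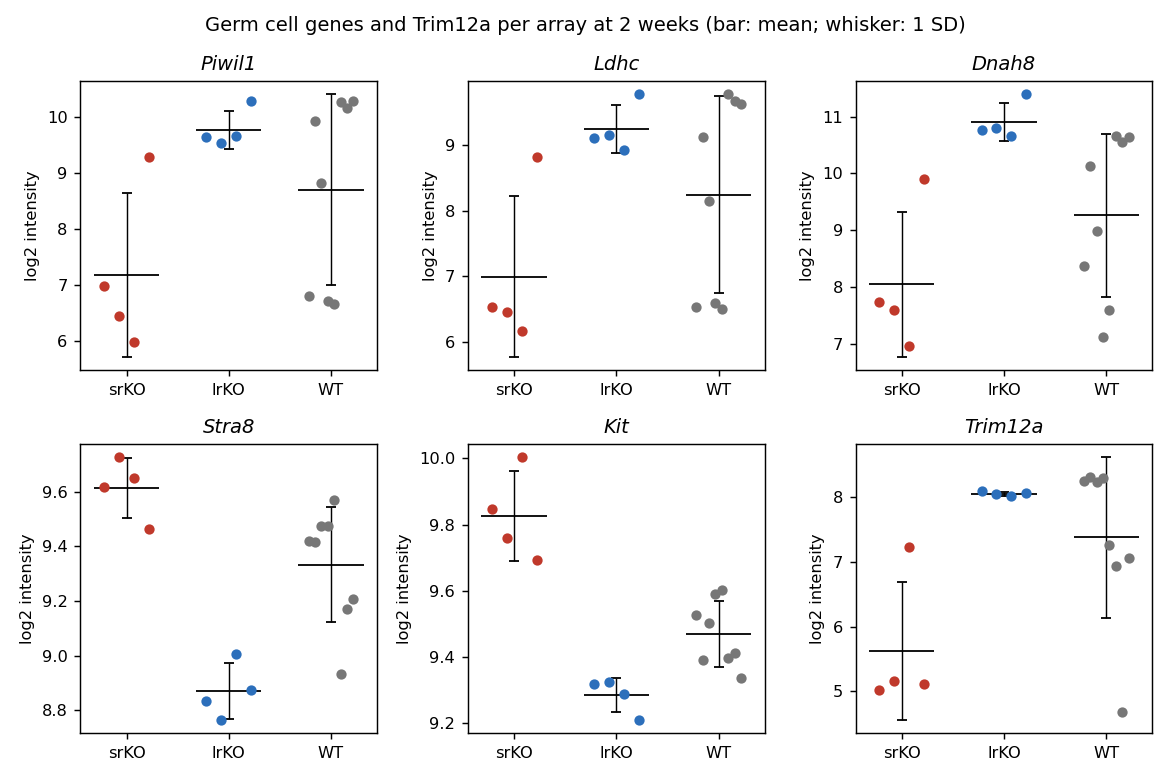
Log2 intensity at 2 weeks of 5 germ cell genes and of Trim12a in the 4 srKO arrays (red), the 4 arrays labelled lrKO (blue) and the 8 WT arrays (grey), with bars for the mean and whiskers for 1 SD. For Piwil1, Ldhc and Dnah8 the WT points spread over most of the range, srKO replicates 1 to 3 lie at its low end, and srKO replicate 4 lies below the lrKO arrays and above the other srKO arrays.

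Dnah8, a dynein heavy chain of the sperm tail, had 7.73, 7.59, 6.97 and 9.90 in the srKO arrays, against 10.76, 10.80, 10.65 and 11.39 in lrKO, a 7.23-fold lower level (-2.85 ± 0.52, adjusted p = 0.0242). Spag17, a protein of the central pair of microtubules, was 5.57-fold lower (-2.48 ± 0.43, adjusted p = 0.0211), and Zmynd10, which helps to assemble dynein arms, 5.41-fold (-2.44 ± 0.59, adjusted p = 0.0443). A second, dimmer Spag17 probe set (mean 4.4) differed by -0.08. Also among the 12 largest falls were the tail gene Cfap206 (-2.45), Flacc1 (-2.80), the sperm membrane gene Ptchd3 (-2.83), the sperm protein gene Crisp2 (-2.63), Mroh4 (-2.59), Tmbim7 (-2.48) and Lypd10 (-2.43). In each of these 10 genes srKO replicate 4 was the highest srKO array, and all were called without srKO replicate 4. None of the 12 was called in every fit that left out 1 array: each lost the threshold in 4 to 7 of the 8 such fits (adjusted p up to 0.13). With the 2-week prKO and WT arrays in the fit, all of the 12 but Trim12a lost the threshold (adjusted p of 0.0539 for Dnah8 to 0.131 for Tmbim7). With WT replicates 1 to 4 given to srKO the same 11 genes shrank to between -1.64 (Dnah8) and -0.64 (Tmbim7), with adjusted p of 0.484 (Spag17) to 0.85 (Tmbim7). Of 58 tested genes whose symbols start with Cfap, Dnah, Dnaaf or Spag and a number, a set chosen after the values were seen, 18 were lower and 0 higher, beside 3.08% lower and 3.03% higher of all genes tested.

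Trim12a, a TRIM family gene among the 12 largest falls, did not follow this order. It had 5.02, 5.16, 7.23 and 5.11 in the srKO arrays, against 8.09, 8.04, 8.01 and 8.07 in lrKO (-2.42 ± 0.42, adjusted p = 0.0211). Replicate 3, and not 4, was the high srKO array, and the WT arrays ran from 4.68 to 8.30. It lost the threshold without srKO replicates 1 or 2 or lrKO replicates 1, 2, 3 or 4 (adjusted p up to 0.0743), and was -0.64, adjusted p = 0.591 with WT replicates 5 to 8 given to srKO.

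Other cell types had few called genes. Of 18 macrophage genes 3 were lower and 0 higher in srKO (4 and 0 without srKO replicate 4), with a median difference of -0.23. They were the growth factor receptor gene Csf1r (-0.43, adjusted p = 0.0384), the complement gene C1qb (-0.44, adjusted p = 0.0197) and the protease gene Ctss (-0.39, adjusted p = 0.0332). Csf1r did not pass without srKO replicates 1, 2 or 3 or lrKO replicates 1, 2, 3 or 4 (adjusted p up to 0.111), C1qb not without srKO replicate 2 or lrKO replicate 3 (adjusted p up to 0.0672), and Ctss not without srKO replicates 1 or 2 or lrKO replicates 1, 2, 3 or 4 (adjusted p up to 0.0958). With the 2-week prKO and WT arrays in the fit 0 of the 18 were called by limma, against 7 at an unadjusted p under 0.05 in the fit of the 8 arrays. Cell cycle genes gave 2 higher and 2 lower of 14, with the replication gene Mcm2 at 0.49, adjusted p = 0.032 and the mitotic regulator genes Cdc20 and Ccnb2 at -0.51, adjusted p = 0.0372 and -0.51, adjusted p = 0.0457. Mcm2 did not pass without srKO replicates 1, 2 or 3 or lrKO replicates 1, 3 or 4 (adjusted p up to 0.0942), and Cdc20 and Ccnb2 passed only without srKO replicate 4 among the fits that left out 1 array (adjusted p up to 0.106 and 0.131). One member each was higher in the lists for endothelium (Kdr of 11), matrix (Fn1 of 24, with 8 higher without srKO replicate 4), myoid cells (Synpo2 of 9), granulosa cells beyond Kitl (Wnt4 of 15), lymphocytes and mast cells (Kit of 6) and glutathione and amino acid transport (Gsr of 11), and 1 of 5 epididymal genes was lower (Wfdc15a, -1.34, adjusted p = 0.0402). Kdr, Fn1, Synpo2, Wnt4, Gsr and Wfdc15a each lost the threshold in 5 to 7 of the 8 fits that left out 1 array (adjusted p up to 0.129). Adipose genes (6), red cell genes (2) and reference genes (8) had 0 called, with 1, 0 and 3 members at an unadjusted p under 0.05.

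**Figure D4:**
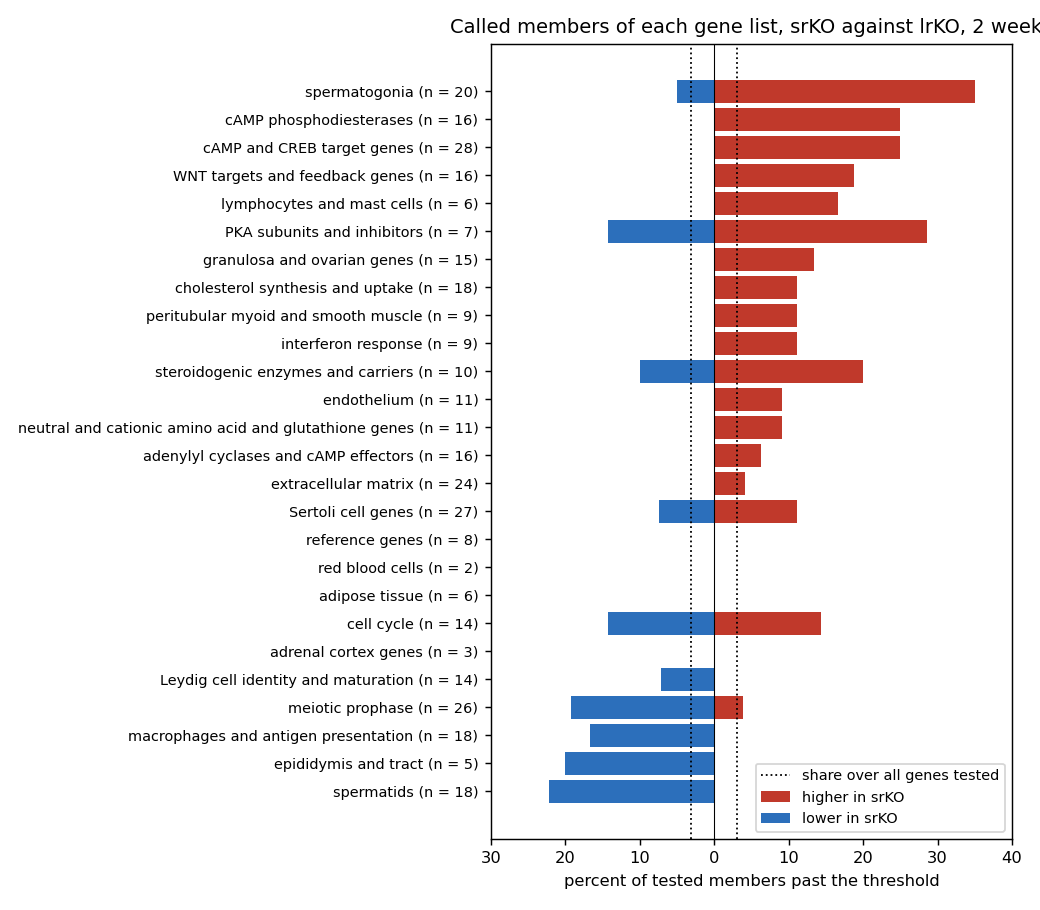
Percent of the tested members of each gene list that were past the threshold in srKO against lrKO at 2 weeks, higher to the right in red and lower to the left in blue, with dotted lines at the shares over all genes tested (3.03% and 3.08%). Spermatogonial (7 of 20) and cAMP target genes (7 of 28) lie on the higher side, and meiotic (5 of 26) and spermatid genes (4 of 18) on the lower side. Only called members are drawn, and the median difference of the 18 spermatid genes was -0.02.

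The same lines were sampled at 2 months in other animals, 4 arrays each, where 3362 genes were higher in the arrays labelled srKO (18.2% of 18462 tested) and 2248 lower (12.2%), together 30.4%. Of the 546 genes higher at 2 weeks 533 were tested at 2 months, and 135 (25.3%) were higher and 67 (12.6%) lower there. Of the 555 lower genes 553 were tested, and 75 (13.6%) were lower and 109 (19.7%) higher there. Prkar2b differed in the same direction (1.24 ± 0.08, adjusted p = 1.85e-05 at 2 months), as did Oasl2 (1.39 ± 0.15, adjusted p = 0.000153), Kcnma1 (1.30 ± 0.11, adjusted p = 3.81e-05), Scin (1.88 ± 0.14, adjusted p = 2.93e-05) and Sema7a (-0.64 ± 0.09, adjusted p = 0.000494). For these 5 the change with age did not pass the test, which does not show an unchanged difference. It came near the threshold for Sema7a (change 0.35, adjusted p = 0.0517) and Scin (change 0.71, adjusted p = 0.0671). Pde7b (1.34 ± 0.12, adjusted p = 6.44e-05) and Pde10a (0.50 ± 0.07, adjusted p = 0.000505) were still higher, by less than at 2 weeks (change -0.91, adjusted p = 0.00528, and -0.97, adjusted p = 0.000168). Sik1 (-0.53 ± 0.12, adjusted p = 0.00903) and Nr4a1 (-0.63 ± 0.16, adjusted p = 0.0169) were lower in the arrays labelled srKO at 2 months. Among other named genes, Pappa (-0.50), Akap1 (-1.11), Dhcr7 (-0.32) and Scarb1 (-0.245) also went from higher to lower (adjusted p up to 0.0454). Vcam1 (1.15), C1qb (0.97), Csf1r (1.03), Ctss (1.75), Cdc20 (0.27) and Piwil1 (0.35) went from lower to higher (adjusted p up to 0.0291).

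Prkar1a itself went against the label at 2 months, with 8.98 to 9.18 in the arrays labelled srKO and 8.86 to 8.90 in those labelled lrKO (0.20 ± 0.07, adjusted p = 0.0463). The 12 genes with the largest falls had differences between -0.31 and 0.35 at 2 months, and each of the 12 changed with age (adjusted p of 0.0132 or less). These 12 genes were chosen by their 2-week difference, which enters the change with age, so the choice favoured a positive change. Cyp11a1 (0.78 ± 0.12, adjusted p = 0.00126) and Nr5a1, the steroidogenic lineage regulator (0.71 ± 0.12, adjusted p = 0.00221), were higher in the arrays labelled srKO at 2 months, and for Nr5a1 the 2-week difference had not passed (0.15, adjusted p = 0.235).

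**Figure D5:**
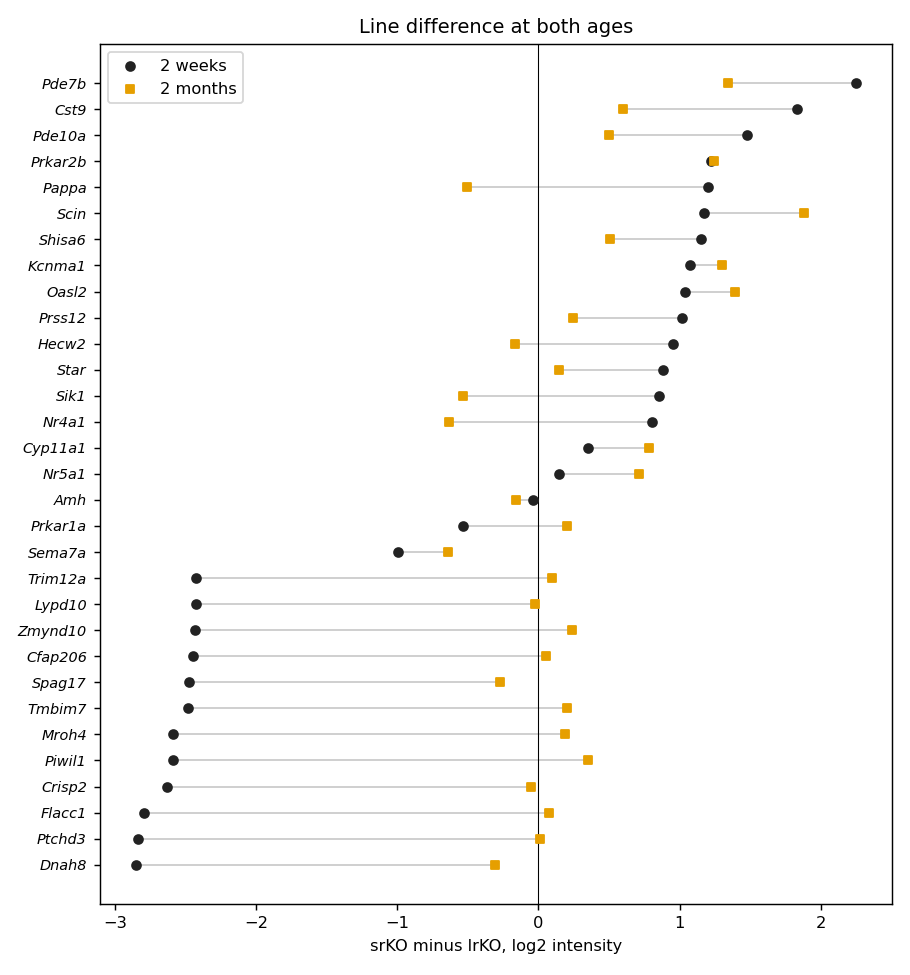
Difference in log2 intensity between the lines (srKO minus lrKO) at 2 weeks (black circles) and at 2 months (orange squares) for the fixed genes, the 12 largest rises and the 12 largest falls of 2 weeks, Sik1 and Nr4a1. Prkar2b, Oasl2 and Kcnma1 stay on the right at both ages, Sik1, Nr4a1, Pappa and Hecw2 cross to the left, and the falls of 2 weeks lie near 0 at 2 months.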

How the data were processed

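The deposited values are log2 intensities per probe set, which the authors normalized with RMA, per the submitters' processing notes. The version of RMA, the genome build and the annotation were not given in the sources used here. All value columns belong to the 39 arrays. Probe sets with a single symbol were kept, with 1 per gene (the highest mean over the 8 arrays of 2 weeks), giving 22180 genes. A gene was tested where the srKO or the lrKO mean exceeded the 25th percentile of all values (18001 genes). Of the called genes, 28 had only 1 of the 2 group means above this limit. Differences were fitted with limma 3.58.1 in R 4.3.3 (lmFit, eBayes, two-sided) on the 8 arrays alone, and p-values were adjusted by Benjamini-Hochberg over the 18001 genes, with calls at 0.05. The test was also run on data simulated from the gene means and spreads of these arrays, with known differences added. The change with age was an interaction over 16 arrays.

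The genes, gene lists and comparison were chosen with earlier results of these data known. The naming rule took Prkar1a, Amh, Cyp11a1, Nr5a1, Sema7a, the 12 largest rises and 12 largest falls among called genes whose groups did not overlap (gene models, clones, small RNAs and chemosensory receptors passed over), the 3 members per list that differed most, and called neighbours of Amh, Cyp11a1 and Prkar1a. Some of these list members are not described above. Other list members that are named were picked after their values were seen. Alternatives were other filters, probe set rules, scalings, weights, groups in the fit, a replicate block, leaving out each array, and subtracting the difference between WT replicates 1 to 4 and 5 to 8. At 2 weeks the deviations of same-numbered srKO and lrKO arrays correlated at -0.034, 0.12, 0.172 and 0.452 for replicates 1 to 4. Only for replicate 4 was the same number the best match at that age. The numbers were therefore not taken to pair animals. The number of arrays limits the precision.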

Additional observations from a re-analysis of the deposited data

Results flagged for a closer look

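In some groups of 4 arrays at 2 weeks 1 array lay far from the other 3, by Dixon's gap test at its 95% critical value. Such srKO arrays, with their log2 intensities, were Oasl2 srKO replicate 3 (7.62), Hecw2 srKO replicate 3 (7.41), Tmbim7 srKO replicate 4 (7.76), Trim12a srKO replicate 3 (7.23), Sfrp1 srKO replicate 4 (9.09), Ldhc srKO replicate 4 (8.82) and Synpo2 srKO replicate 4 (6.18). Such lrKO arrays were Nr5a1 lrKO replicate 1 (8.45), Cst9 lrKO replicate 2 (11.24), Piwil1 lrKO replicate 4 (10.27), Mroh4 lrKO replicate 4 (9.43), Spag17 lrKO replicate 4 (8.67), Tsx lrKO replicate 4 (11.07), Sfrp4 lrKO replicate 2 (5.51), Csf1r lrKO replicate 3 (7.81), Gadd45b lrKO replicate 1 (7.93) and Map2k6 lrKO replicate 4 (5.98). Chance alone marks about 1 in 20 groups, and many genes were examined.

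The difference between srKO and lrKO changed with age in several genes by the interaction test (limma, adjusted p under 0.05), given here as the 2-month minus the 2-week difference on the log2 scale. Among the 12 largest falls of 2 weeks the change was positive in Dnah8 (2.54), Ptchd3 (2.84), Flacc1 (2.87), Crisp2 (2.57), Piwil1 (2.95), Mroh4 (2.78), Tmbim7 (2.68), Spag17 (2.21), Cfap206 (2.50), Zmynd10 (2.68), Lypd10 (2.40) and Trim12a (2.52). It was also positive in Prkar1a (0.73), Cyp11a1 (0.43), Nr5a1 (0.56), Vcam1 (1.82), C1qb (1.41), Csf1r (1.46), Ctss (2.14) and Cdc20 (0.78). It was negative in Pde7b (-0.91), Cst9 (-1.23), Pde10a (-0.97), Pappa (-1.70), Prss12 (-0.77), Hecw2 (-1.11), Star (-0.73), Akap1 (-1.44), Sik1 (-1.39), Nr4a1 (-1.44), Dhcr7 (-0.92) and Scarb1 (-0.72). Over all genes tested, 26.6% passed this test. The largest rises and falls and most list members were chosen by their 2-week differences, which enter this change. That choice favoured a change opposite in sign to the 2-week difference.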

How the results depend on the processing

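The count of 1101 called genes at 2 weeks was 372 with all 4 genotypes of that age in the fit (296 higher and 76 lower), 2486 with array weights, 1822 with the replicate block and 468 after the WT set difference was subtracted with replicates 1 to 4 given to srKO. Leaving out 1 array gave 94 (without srKO replicate 2) to 2693 (without srKO replicate 4). Under the other alternatives the total lay within 1.5 times, but under 2 of them the split of 546 higher and 555 lower genes shifted by over 10 percentage points: it was 977 and 407 with WT replicates 5 to 8 given to srKO (424 calls shared) and 474 and 730 with all 8 groups in the fit (773 shared). With WT replicates 1 to 4 given to srKO, Cyp11a1 turned to -0.26 (adjusted p = 0.607) and Wnt4 to -0.0148 (adjusted p = 0.977). With WT replicates 5 to 8 given to srKO, C1qb turned to 0.10 (adjusted p = 0.673) and Ctss to 0.10 (adjusted p = 0.767). The cause was not tested. Of the named genes called in every fit that left out 1 array, the first subtraction ended the calls of Prkar1a, Stra8, Cd276, Sfrp1 (0.13, adjusted p = 0.818) and Pgk2 (-0.22, adjusted p = 0.711), and the second those of Sik1, Nr4a1 and Tsx (-0.76, adjusted p = 0.214). With all 8 groups in the fit Sfrp1 had an adjusted p of 0.206, and with 4 genotypes Pgk2 had 0.106. In all 22 settings 26 genes were called, 24 higher and 2 lower in srKO. The counts at 2 months and of the change with age lay within 1.5 times under every alternative run. The replicate numbers are shared by label only.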

Other observations

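Among the 26 genes called in all 22 settings of the 2-week comparison, some belong to no list described above, and they were picked after their values were seen. Cxcr4, a chemokine receptor gene, lay at 7.97 to 8.21 in the srKO arrays and at 7.13 to 7.44 in the arrays labelled lrKO (0.82 ± 0.09, adjusted p = 0.00419, limma). Reln, an extracellular matrix glycoprotein gene, lay at 8.01 to 8.31 in the srKO arrays and at 7.45 to 7.67 in the arrays labelled lrKO (0.62 ± 0.08, adjusted p = 0.00908, limma). Nrcam, a cell adhesion gene, lay at 7.34 to 7.69 in the srKO arrays and at 6.42 to 6.78 in the arrays labelled lrKO (0.86 ± 0.11, adjusted p = 0.00856, limma). In these 3 genes every srKO array lay above every lrKO array. Col18a1, a basement membrane collagen gene, lay at 8.74 to 8.96 in the srKO arrays and at 8.11 to 8.40 in the arrays labelled lrKO (0.63 ± 0.09, adjusted p = 0.00963, limma). Slc27a2, a fatty acid transport gene, lay at 7.27 to 7.58 in the srKO arrays and at 6.73 to 6.84 in the arrays labelled lrKO (0.62 ± 0.08, adjusted p = 0.00884, limma). Cdc6, a replication licensing gene, lay at 7.80 to 7.94 in the srKO arrays and at 7.21 to 7.43 in the arrays labelled lrKO (0.53 ± 0.07, adjusted p = 0.0108, limma). The last 3 genes also had no overlap between the lines. Dnaja4, a co-chaperone gene, lay at 6.39 to 6.79 in the srKO arrays and at 7.14 to 7.27 in the arrays labelled lrKO (-0.67 ± 0.09, adjusted p = 0.00908, limma). Dnaja4 was lower in every srKO array than in any lrKO array.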
